A study of Mus musculus with 44 samples.

Results

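Wnt3a, Rspo3 and Nog are 3 of the 19733 gene symbols in a table of RNA-seq read counts from mouse organoids, and they were followed in all 20 RNA-seq libraries of the 44 samples in the series. They were taken by name as the genes of the growth factors that L-WRN cells, an engineered mouse fibroblast line, secrete into conditioned medium for organoid culture. They were selected on their read counts in these libraries, where Wnt3a had stood out in the deletion groups, so their levels are given as a description with no test. All 3 matched the RefSeq gene table of the GRCm38.p6 assembly (mm10).

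The libraries form 2 experiments on C57BL/6 organoids, which are epithelial cultures grown in Matrigel. The first holds 9 libraries of stomach antrum organoids that all overexpressed HNF4A, an intestinal transcription factor: 3 homozygous and 3 heterozygous for a germline CRISPR-Cas9 deletion of an enhancer 3' of Cdx2, and 3 wild type for it. The second holds 11 libraries: gastric organoid lines that expressed CDX2 (3) or HNF4A (3) from a lentivirus, small intestine organoids (2), and gastric lines that expressed GFP from a lentivirus as the control (3). The source label of the 9 lentiviral libraries reads small intestine and their tissue label reads gastric; they are called gastric here, after the tissue label and the study's design text. No medium is named in the labels, and whether replicates of the enhancer experiment came from separate animals or cultures is not stated, so spread between them may be technical. Each library held between 6180498 and 11465309 assigned reads. As a check of the labels, Cdx2 had 2, 14 and 5 reads in the homozygous libraries, 176, 65 and 82 in the heterozygous libraries and 186, 223 and 460 in the wild-type libraries. In each of the 9 enhancer libraries the epithelial markers Epcam, Cdh1, Krt8, Krt18, Krt19 and Vil1 summed to between 3980 and 10100 CPM, which are counts scaled to library size.

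The 3 genes encode secreted proteins that together hold gastrointestinal epithelium in a stem-cell state in culture. Wnt3a is a canonical Wnt ligand: it binds Frizzled and LRP receptors, stabilises beta-catenin and switches on TCF/LEF target genes such as Axin2. R-spondin 3, made from Rspo3, binds LGR4, LGR5 and LGR6 and keeps the ubiquitin ligases RNF43 and ZNRF3 from removing Frizzled from the cell surface. Noggin, made from Nog, binds bone morphogenetic proteins (BMPs) outside the cell and blocks their signalling, which would otherwise drive Id1 and related targets. In the gut wall such factors come largely from mesenchymal cells under the epithelium, with Wnt3 from Paneth cells as the main epithelial Wnt of the small intestine.

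The genes lie apart in the genome. In GRCm38.p6, RefSeq places Wnt3a at chr11:59248036-59290751, between Arf1 (19.8 kb away) and Wnt9a (16.1 kb away). Nog lies on the same chromosome at chr11:89300638-89302559, with Ankfn1 87.5 kb away and Dgkeos 233 kb away. Rspo3 lies at chr10:29453106-29535867, with Rnf146 90.7 kb away and Cenpw 660.0 kb away. The RefSeq promoter windows, each 250 bases before to 50 bases after the annotated start, are printed here for Wnt3a, its neighbour Wnt9a and Vim. Vim was the gene whose level followed Wnt3a most closely over the deletion libraries. The windows are chr11:59290702-59291001 on the minus strand for Wnt3a, chr11:59306680-59306979 on the plus strand for Wnt9a and chr2:13574061-13574360 on the plus strand for Vim. Capitals mark the letters GGGCGG (the GC box) and TATAAA (the TATA box) on either strand, so that CCGCCC is also in capitals.
Wnt3a: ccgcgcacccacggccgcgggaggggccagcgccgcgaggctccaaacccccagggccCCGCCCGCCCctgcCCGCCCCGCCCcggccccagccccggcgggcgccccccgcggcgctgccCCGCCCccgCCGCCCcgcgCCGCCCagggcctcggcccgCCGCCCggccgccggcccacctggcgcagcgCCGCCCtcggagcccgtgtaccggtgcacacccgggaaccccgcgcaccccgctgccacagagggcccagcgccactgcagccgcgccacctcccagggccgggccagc
Wnt9a: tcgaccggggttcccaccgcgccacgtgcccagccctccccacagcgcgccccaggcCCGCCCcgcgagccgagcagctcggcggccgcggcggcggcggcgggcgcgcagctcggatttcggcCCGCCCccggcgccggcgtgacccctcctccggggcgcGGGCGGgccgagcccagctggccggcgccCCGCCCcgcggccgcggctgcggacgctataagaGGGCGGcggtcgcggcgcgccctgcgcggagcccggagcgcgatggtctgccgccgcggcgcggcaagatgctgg
Vim: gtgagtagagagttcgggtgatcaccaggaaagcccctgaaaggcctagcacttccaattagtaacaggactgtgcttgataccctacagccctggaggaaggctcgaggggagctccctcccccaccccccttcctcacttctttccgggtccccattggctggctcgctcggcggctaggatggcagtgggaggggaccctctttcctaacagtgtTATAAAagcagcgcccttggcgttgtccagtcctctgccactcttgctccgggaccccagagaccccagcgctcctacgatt

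The Wnt3a window was 86.3% G or C with 45 CpG dinucleotides and 9 GGGCGG matches, some of which overlap by 3 bases in all. The Wnt9a window was 83.3% G or C with 58 CpG and 5 GGGCGG matches. The Vim window was 59.3% G or C with 11 CpG, no GGGCGG match and 1 TATAAA match. Over all 32851 RefSeq windows of this length, the median was 52.7% G or C and 7 CpG, 1.93% held at least as many CpG as that of Wnt3a, 35.7% held GGGCGG and 13.6% held TATAAA. Neither the Wnt3a nor the Wnt9a nor the Vim window held CTTTGA or CTTTGT (letters bound by TCF/LEF factors, in 16.0% and 18.7% of all windows), TTTATNG (CDX factors, 10.9%) or CAAAGTCCA (HNF4A, 0.475%), with both strands searched. Counts per gene do not show which start site the reads came from.

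Wnt3a was counted in every library with a deletion and was at or near 0 reads elsewhere. It had 956, 2011 and 17541 reads in homozygous libraries 1 to 3, 1674, 21190 and 27301 reads in heterozygous libraries 1 to 3, and 0, 2 and 34 reads in wild-type libraries 1 to 3. As CPM, scaled by TMM factors within the experiment, these were 95.1, 196 and 2052 in homozygous, 175, 1807 and 3096 in heterozygous, and 0, 0.24 and 4.32 in wild-type libraries. The lowest deletion library therefore stood far above the highest wild-type library, but the deletion libraries also differed among themselves, 21.6-fold within the homozygous and 17.7-fold within the heterozygous group. Homozygous 3, heterozygous 2 and heterozygous 3 were the high libraries, and both genotypes had a library near 100 to 200 CPM. The means were 781 ± 1102 CPM in homozygous, 1693 ± 1464 CPM in heterozygous and 1.52 ± 2.43 CPM in wild-type libraries (SD, n = 3 each), so the SD within each group was of the order of its mean or above it.

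Rspo3 divided the libraries in the same way, less sharply. It had 51, 129 and 547 reads in homozygous, 53, 632 and 610 in heterozygous, and 45, 21 and 0 in wild-type libraries. Its CPM were 5.07, 12.6 and 64.0 in homozygous, 5.55, 53.9 and 69.2 in heterozygous, and 4.05, 2.53 and 0 in wild-type libraries. Homozygous 1 and heterozygous 1 lay just above wild-type 1, so the groups were separate by a narrow margin. Homozygous 3 and heterozygous 2 and 3 were again the high libraries. The wild-type library with the most Wnt3a reads, number 3, had no Rspo3 read.

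Nog divided the libraries with a clear gap, as Wnt3a did. It had 18, 60 and 627 reads in homozygous, 56, 649 and 647 in heterozygous, and 2, 0 and 3 in wild-type libraries. Its CPM were 1.79, 5.84 and 73.3 in homozygous, 5.87, 55.4 and 73.4 in heterozygous, and 0.18, 0 and 0.38 in wild-type libraries. The groups did not overlap, and homozygous 3, heterozygous 2 and heterozygous 3 were the high libraries once more. The means were 27.0 ± 40.2 CPM in homozygous, 44.9 ± 35.0 CPM in heterozygous and 0.19 ± 0.19 CPM in wild-type libraries (SD, n = 3 each), and for Rspo3 27.2 ± 32.1, 42.9 ± 33.2 and 2.19 ± 2.04 CPM in the same order.

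**Figure D1:**
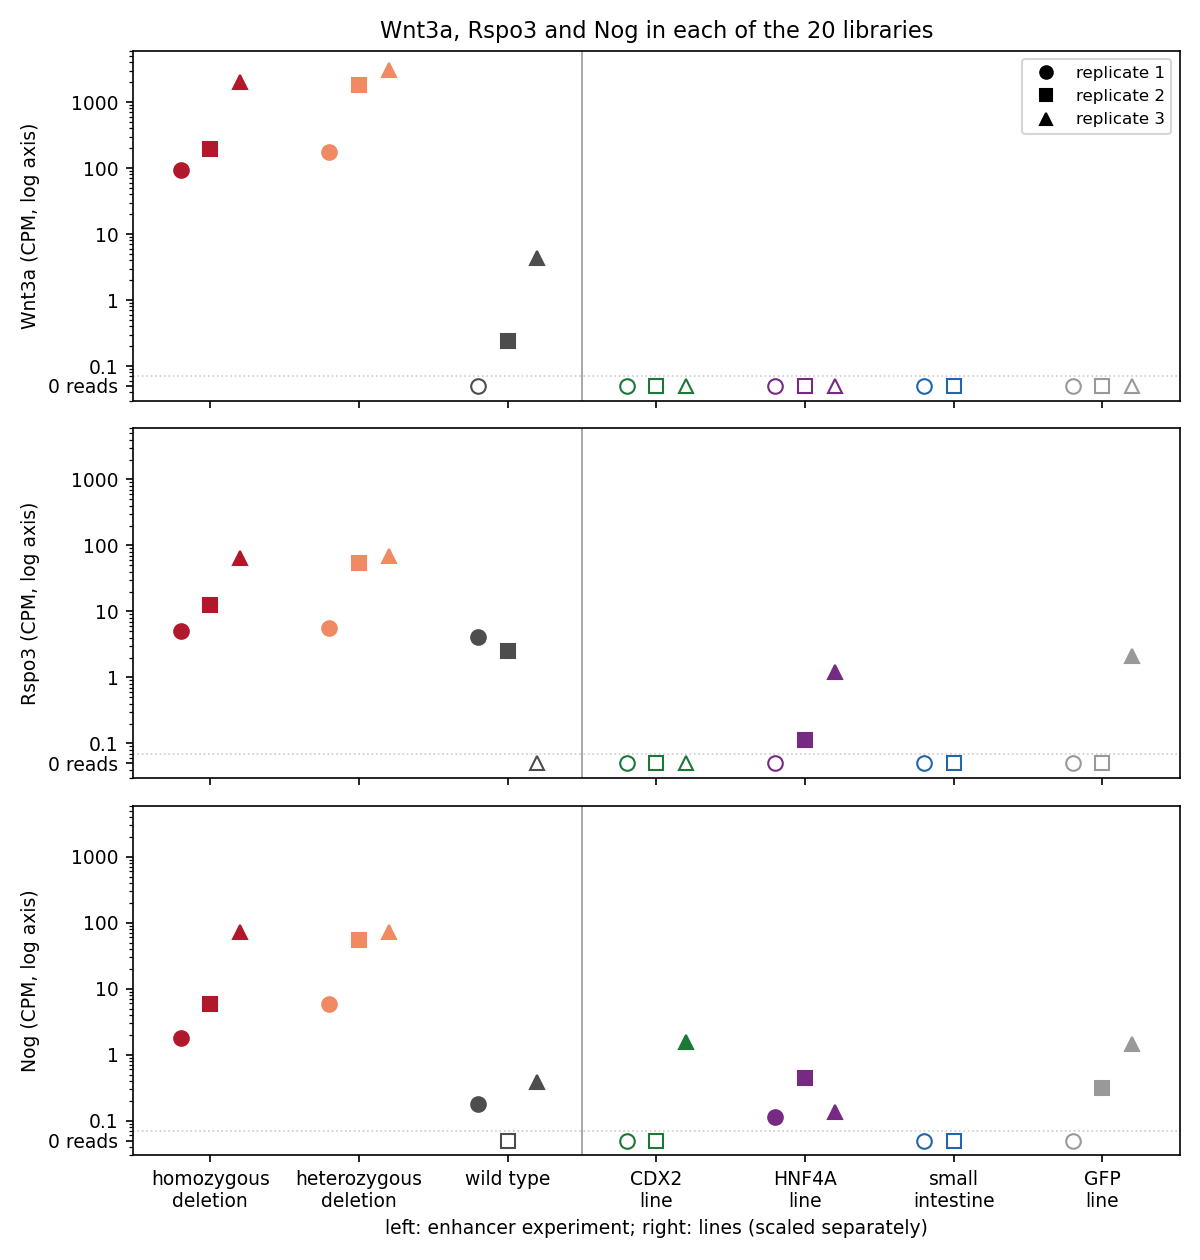
CPM (log axis, scaled within each experiment) of Wnt3a, Rspo3 and Nog in each library, with open symbols on the lowest line for libraries with 0 reads. Each point is 1 library and its shape is the replicate number. Homozygous 3, heterozygous 2 and heterozygous 3 are highest for all 3 genes, and Wnt3a has no read in the 11 libraries of the lines.

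All 3 genes had every homozygous and every heterozygous library above every wild-type library. The same held for 4.72% of the 12593 genes tested in the homozygous and 8.77% in the heterozygous comparison; nothing is read from the members' count, since their values led to their choice. The fitted sizes in edgeR's model, given with no test, were a log2 fold change over wild type of 9.11 (homozygous) and 10.22 (heterozygous) for Wnt3a, 3.57 and 4.23 for Rspo3, and 7.10 and 7.84 for Nog. Both comparisons use the same 3 wild-type libraries. Homozygous against heterozygous, the sizes were -1.12 for Wnt3a, -0.66 for Rspo3 and -0.74 for Nog, and the 2 genotypes overlapped for each gene. Over all tested genes, same-numbered libraries of these genotypes deviated together to different degrees (r = 0.53, 0.188 and 0.361 for numbers 1 to 3). The labels name no pairing. Within numbers the homozygous library was the lower one in 3 of 3 pairs for each gene, by as little as 73.3 against 73.4 CPM for Nog in number 3. In number 2, Wnt3a was at 196 against 1807 CPM. Since the genes were chosen for their values, nothing is read from the 3 of 3. With the replicate number as a block, in a fit that also held the wild-type libraries, the sizes were -1.59 for Wnt3a, -0.82 for Rspo3 and -1.59 for Nog. Without homozygous 3 the size over wild type was 6.69 for Wnt3a, 1.95 for Rspo3 and 4.28 for Nog, and without wild-type 3 it was 12.72 for Wnt3a. With heterozygous 2 and 3 left out as well as homozygous 3, Rspo3 in the single remaining heterozygous library was 1.30 over wild type, and Rspo3 in homozygous against heterozygous turned to 0.67.

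In the lines the 3 genes were at or near the limit of detection. Wnt3a had 0 reads in all 11 libraries, that is 0 of 96508452 assigned reads, which allows up to 0.0312 CPM over the 11 together and up to 0.279 to 0.473 CPM in single libraries, for counting error only. Rspo3 had 27 reads in all: 0, 1 and 9 in the HNF4A lines, 0, 0 and 17 in the GFP lines, and none in the CDX2 lines or the small intestine organoids. Nog had 31 reads: 0, 0 and 10 in the CDX2 lines, 1, 4 and 1 in the HNF4A lines, 0 and 0 in small intestine, and 0, 3 and 12 in the GFP lines. GFP line 3 thus had the most reads of both Rspo3 and Nog, and HNF4A line 3 and CDX2 line 3 each had most of the rest of one of them. Neighbouring groups in this order cannot be separated at such counts, and no fold change is given. Of the 3 genes, Rspo3 and Nog passed the filter on low counts in the lines and Wnt3a did not; all 3 passed it in the enhancer experiment. In bulk libraries, fewer cells of a type and less RNA per cell cannot be told apart.

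Within the deletion libraries, the proportions of the 3 genes varied far less than their levels. For every 100 reads of Wnt3a, there were 1.88, 2.98 and 3.57 Nog reads in homozygous libraries 1 to 3 and 3.35, 3.06 and 2.37 in heterozygous libraries 1 to 3. The exact 95% intervals, which cover counting error only, ran from 1.11 to 2.99 in homozygous 1 and from 2.19 to 2.56 in heterozygous 3, the narrowest. Rspo3 reads per 100 Wnt3a reads were 5.33, 6.41 and 3.12 in homozygous and 3.17, 2.98 and 2.23 in heterozygous libraries. The intervals of homozygous 1 (3.94 to 7.07) and homozygous 2 (5.33 to 7.67) lay above that of homozygous 3 (2.86 to 3.40), and that of heterozygous 3 (2.06 to 2.42) lay below. The number of Rspo3 reads per Nog read was 2.83, 2.15 and 0.872 in homozygous and 0.946, 0.974 and 0.943 in heterozygous libraries, so homozygous 1 and 2 stood apart. These ratios are compared between libraries only: counts per gene were not set on a per-length scale, so they do not give the relative abundance of the transcripts.

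**Figure D2:**
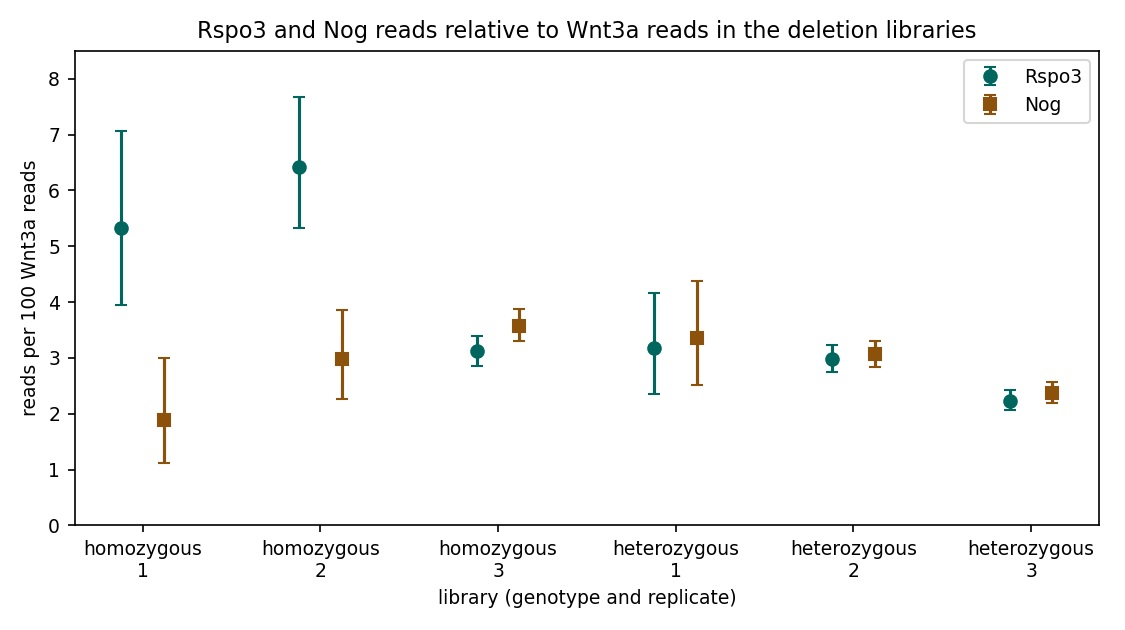
Reads of Rspo3 (circles) and Nog (squares) per 100 reads of Wnt3a in the 6 deletion libraries, with exact 95% intervals for counting error. Rspo3 is highest in homozygous 1 and 2, at 5.33 and 6.41, and the other values lie between 1.88 and 3.57.

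A gene whose ratio to Wnt3a is constant has a small standard deviation (SD) of log2(gene CPM / Wnt3a CPM) over the 6 deletion libraries. That SD was 0.34 for Nog and 0.58 for Rspo3, which put them at ranks 23 and 68 among 11381 genes with at least 10 reads in each of the 6 libraries. The median gene had an SD of 2.23, close to the 2.19 of Wnt3a's own log2 level. The SD was under 0.5 for 54 genes (0.474%). Of these 54, 46 had all 6 deletion libraries above all 3 wild-type libraries and 16 had 3 or fewer reads in wild type; since they were picked for following a gene that was itself chosen for its difference from wild type, nothing is read from those counts. The points share library depth and scaling, and the values describe these libraries without a test.

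Vim, which encodes the mesenchymal intermediate filament vimentin, followed Wnt3a most closely, with an SD of 0.13. Vim had 17.1, 36.9 and 458 CPM in homozygous, 35.1, 371 and 537 CPM in heterozygous, and 3.96, 3.13 and 0.38 CPM in wild-type libraries. Among the deletion libraries the high and low ones were those of Wnt3a, and the range over them was 31.4-fold for Vim and 32.6-fold for Wnt3a. The SD leaves wild type out. There the order was the reverse: wild-type 3 had the most Wnt3a (4.32 CPM) and the least Vim (0.38 CPM). Next came Mrc2 (0.18), an endocytic collagen receptor, and Aebp1 (0.24), a secreted matrix-associated protein. The rest of the 12 most alike included Plekho1, Tgfbr3, Igfbp6, Gpnmb, Rcn3, Lgals1, Fabp4 and Rcn1, up to an SD of 0.32.

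The genes nearest to Nog were Cd109 (0.12), a membrane protein that binds TGF-beta, Serpinh1 (0.14), the collagen chaperone HSP47, and Hoxb9 (0.18), a homeobox factor of posterior body regions. Cd109 had 2.19, 5.94 and 87.9 CPM in homozygous, 6.49, 63.9 and 73.3 CPM in heterozygous, and 0.09, 0.24 and 0.13 CPM in wild-type libraries. Serpinh1 had 16.5, 59.99 and 571 CPM in homozygous, 49.2, 525 and 668 CPM in heterozygous, and 0.72, 1.68 and 1.14 CPM in wild-type libraries. Among the deletion libraries both had the high and low libraries of Nog, with the lowest value in homozygous 1. Zeb2, Col1a1, Mrc2, Fgfr1, Col6a3, Vim, Sparc, Ddr2 and Nes completed the 12, up to an SD of 0.28.

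Rspo3 had other neighbours by pattern. Dact3, of the Dapper family of Dishevelled-binding proteins, was the closest (0.16), with 1.29, 3.21 and 12.6 CPM in homozygous, 1.26, 11.4 and 15.8 CPM in heterozygous, and 0.54, 1.203 and 0 CPM in wild-type libraries. Nexn (0.25), an actin-binding protein, and Phospho1 (0.27), a phosphatase of skeletal mineralisation, followed. Fkbp5, Rps15a-ps6, Fosl1, Eno1b, Plekho2, Zbp1, Rtn4r, Ttc7b and Lgals1 completed the 12, up to an SD of 0.37. Rps15a-ps6 and Eno1b have near-identical copies elsewhere in the genome, so their counts are uncertain. The list for Wnt3a shared Vim and Mrc2 with that for Nog (16.7% of each list) and Lgals1 with that for Rspo3 (8.33% of each), and the lists for Rspo3 and Nog shared none.

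**Figure D3:**
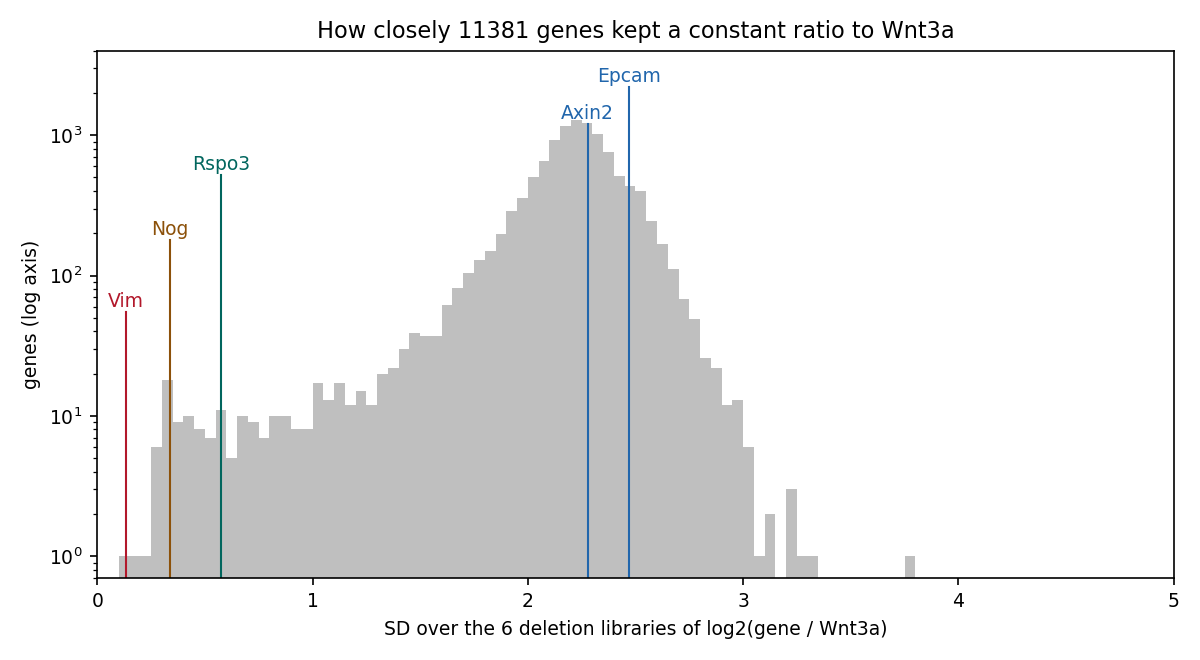
Distribution over 11381 genes of the SD, over the 6 deletion libraries, of the log2 ratio of each gene to Wnt3a (x axis), with the number of genes on a log y axis. Vim (0.13), Nog (0.34) and Rspo3 (0.58) lie in the thin left tail, and the Wnt target Axin2 (2.28) and the epithelial gene Epcam (2.47) lie in the bulk around the median of 2.23.

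Markers of cell types were compared with Wnt3a only, and followed it to different degrees. Of the 24 fibroblast and matrix markers, 11 had at least 10 reads in each of the 6 deletion libraries and could be compared with Wnt3a. Of these, 7 (63.6%, against 0.474% of all genes) had an SD under 0.5: Col1a1, Sparc, Vim, Serpinh1, Pdgfra, Pdgfrb and Loxl1. Wnt3a was chosen for its values and the list with earlier results known, so that share is a description and no independent support. The summed level of the 24 ran from 330 to 2770 CPM in homozygous, from 893 to 2800 CPM in heterozygous and from 267 to 448 CPM in wild-type libraries. The homozygous and wild-type sums thus overlapped. By edgeR 0 of the 15 that passed the filter were called in either comparison with wild type. DESeq2 called 12 in each as higher, against 1.43% and 2.6% of all genes called in either direction. Of the 15, 13 had all homozygous and 15 had all heterozygous libraries above all wild-type ones (4.72% and 8.77% of all genes). Since 17 of the 24 were under 1 CPM in every wild-type library, part of the 15 passed the filter only through the deletion libraries. Nothing is read from these counts. Lum had no read in any of the 9 libraries, and Thy1, Postn and Col6a2 had none in the homozygous libraries. The endothelial list summed to 4.38 to 35.2 CPM in homozygous, 5.66 to 48.4 CPM in heterozygous and 1.27 to 2.79 CPM in wild-type libraries, with Eng the only one of its genes that could be compared with Wnt3a (SD 0.35). The gut mesenchyme markers were Foxl1, Foxf1, Foxf2, Gli1, Nkx2-3 and Barx1. They summed to 0.195 to 4.56 CPM in homozygous, 0.314 to 4.08 CPM in heterozygous and 0 to 0.63 CPM in wild-type libraries. Both deletion groups thus overlapped the wild type, and Nkx2-3 had no read in any of the 9. The smooth muscle, immune and enteric neural lists also overlapped between the groups in their sums. The 6 epithelial markers summed to 4230 to 6780 CPM in homozygous, 3980 to 7000 CPM in heterozygous and 6700 to 10100 CPM in wild-type libraries, and 2 and 4 of the 6 had all homozygous or all heterozygous libraries below all wild-type ones (4.15% and 6.15% of all genes). Their SD of ratio to Wnt3a had a median of 2.52. The part of other cells, of feeder cells or of the medium in the reads of Wnt3a, Rspo3 and Nog was not tested.

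The genes beside Wnt3a, Rspo3 and Nog on the chromosome were compared over the same libraries. Wnt9a, another Wnt ligand, had 1.19, 0.78 and 3.04 CPM in homozygous, 3.14, 2.22 and 1.93 CPM in heterozygous, and 1.80, 1.203 and 1.27 CPM in wild-type libraries. Its homozygous and wild-type libraries overlapped, and its heterozygous libraries all lay above the wild-type ones, with a log2 fold change of 0.76 ± 0.58 (SE, adjusted p = 0.715, edgeR). Arf1, a trafficking GTPase on the other side of Wnt3a, lay between 463 and 583 CPM in homozygous, 514 and 553 CPM in heterozygous, and 551 and 609 CPM in wild-type libraries. Rnf146, next to Rspo3, lay between 71.4 and 96.8 CPM in homozygous, 74.4 and 84.9 CPM in heterozygous, and 82.97 and 99.4 CPM in wild-type libraries. Cenpw, on the other side of Rspo3, lay between 8.26 and 17.4 CPM in homozygous, 8.69 and 22.4 CPM in heterozygous, and 8.26 and 17.3 CPM in wild-type libraries. Arf1, Rnf146 and Cenpw thus overlapped between all 3 genotypes. Ankfn1, next to Nog, had no read in any library, and Dgkeos had at most 5.

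The other genes of the Wnt and BMP pathways were compared to see whether they differed along with the 3 ligand genes. Of 102 such genes, 74 passed the filter in the enhancer experiment, and edgeR's quasi-likelihood test with Benjamini-Hochberg adjustment called 0 of the 74 in homozygous against wild type, in heterozygous against wild type or in homozygous against heterozygous. That test called 0.0% of all 12593 genes in each comparison; at an unadjusted p under 0.05 it had 3, 5 and 0 of the 74, against 578, 1125 and 33 of all genes (4.59%, 8.93% and 0.262%). DESeq2 called 1, 3 and 0 of the 74, against 1.43%, 2.6% and 0.00794% of all genes, and limma-voom called 0 of the 74 in each. The median log2 fold change of the 74 over wild type was 0.08 in homozygous and -0.09 in heterozygous libraries, against 0.00067 and -0.0035 over all genes. Of the 74, 3 had all homozygous libraries above all wild-type libraries and 0 had them below (4.72% and 4.15% of all genes), and 5 and 3 did so in the heterozygous comparison (8.77% and 6.15%).

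Among the 18 other Wnt ligands, 9 passed the filter, and Wnt10b was the one with a large size. Wnt10b, a canonical ligand, had 6, 31 and 468 reads in homozygous, 53, 251 and 342 reads in heterozygous, and 0, 0 and 0 reads in wild-type libraries. Against the limit of 3 reads over the wild-type group, its level from pooled reads was at least 159-fold higher in homozygous and at least 195-fold higher in heterozygous libraries. Most of the pooled homozygous reads, 468, came from homozygous 3. Its adjusted p was 0.877 and 0.457 by edgeR and 0.00111 and 0.000453 by DESeq2. With no wild-type read, Wnt10b passed the filter through the deletion libraries alone, which favours a higher level there, so these p values are not independent support. Homozygous 3 and heterozygous 2 and 3 were its high libraries too. The other R-spondin genes, Rspo1, Rspo2 and Rspo4, were all under the filter, with Rspo1 and Rspo2 at 0 reads in the 9 libraries.

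Among 17 tested receptors and co-receptors, Lgr6, a receptor of R-spondins, stood out. It had 4, 9 and 31 reads in homozygous, 5, 45 and 66 reads in heterozygous, and 1, 0 and 0 reads in wild-type libraries. With 1 read in the wild-type group, the ratio was 41.6 (95% counting interval 7.09 to 1680) in homozygous and 105 (18.5 to 4190) in heterozygous libraries. The adjusted p was 0.877 and 0.457 by edgeR and 0.0703 and 0.00465 by DESeq2. Lgr6 also passed the filter through the deletion libraries alone, so these p values are not independent support. The R-spondin receptors Lgr5 and Lgr4 overlapped between groups. Lgr5, a marker of epithelial stem cells, had 160.0, 196 and 151 CPM in homozygous, 161, 153 and 152 CPM in heterozygous, and 196, 167 and 94.1 CPM in wild-type libraries. Lgr4 lay between 202 and 426 CPM in homozygous, 263 and 327 CPM in heterozygous, and 321 and 454 CPM in wild-type libraries. Rnf43, the ligase that R-spondins restrain, lay between 206 and 293 CPM in homozygous, 240 and 250 CPM in heterozygous, and 203 and 315 CPM in wild-type libraries.

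Targets of Wnt signalling overlapped between groups. All 18 passed the filter, 0 were called by edgeR, DESeq2 or limma-voom, and 0 were separate between a deletion group and wild type. Over all genes edgeR and limma-voom called 0.0%, and DESeq2 called 1.43% (homozygous) and 2.6% (heterozygous). Separate upward or downward were 4.72% or 4.15% of all genes in the homozygous and 8.77% or 6.15% in the heterozygous comparison. At these shares few of any 18 genes would be separate, and the count of 0 was not tested against them. Axin2, the feedback inhibitor often used as a readout of the pathway, had 154, 244 and 133 CPM in homozygous, 130, 175 and 157 CPM in heterozygous, and 226, 153 and 63.4 CPM in wild-type libraries. Its log2 fold change was 0.26 ± 0.41 (SE, adjusted p = 0.999, edgeR) in homozygous and 0.06 ± 0.41 (adjusted p = 0.976, edgeR) in heterozygous libraries over wild type. The range of Axin2 over the 6 deletion libraries was 1.87-fold, where that of Wnt3a was 32.6-fold, and the highest Axin2 value stood in homozygous 2. Sp5 (0.46 ± 0.58 and 0.17 ± 0.58) and Notum (0.17 ± 0.59 and -0.14 ± 0.59) were likewise not called. The genes with the highest mean level in each pathway list include, beside Wnt10b, Lgr4, Rnf43 and the BMP targets given elsewhere, 12 others, whose sizes over wild type in homozygous and heterozygous libraries follow. They were 0.30 and 0.32 for the ligand Wnt10a, 0.0037 and -0.040 for Wls, which carries Wnts to the cell surface, -0.30 and -0.46 for Porcn, which acylates them, and -0.14 and -0.21 for the co-receptor Lrp5. They were 0.21 and 0.047 for Znrf3 and -0.034 and -0.038 for the cyclin gene Ccnd1. On the BMP side they were 0.11 and 0.20 for Twsg1 and -0.059 and -0.27 for Nbl1, both BMP antagonists, -0.68 and -0.73 for the ligand Bmp2 and 0.083 and 0.065 for Bmp7, and -0.25 and -0.37 for the receptor gene Bmpr1a and 0.15 and 0.084 for Bmpr2. EdgeR called none of these 12, with adjusted p of 0.661 or more, and DESeq2 and limma-voom called none either. A p that misses the threshold does not show that these genes were equal.

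On the BMP side, 7 ligands, 5 receptors and 9 targets passed the filter. Id1, the direct target that Noggin lowers, had 108, 65.1 and 22.3 CPM in homozygous, 50.6, 39.2 and 25.6 CPM in heterozygous, and 76.7, 81.2 and 112 CPM in wild-type libraries. All heterozygous libraries were below all wild-type ones, with a log2 fold change of -1.22 ± 0.49 (SE, adjusted p = 0.534, edgeR; 0.219 by DESeq2); homozygous 1 overlapped the wild type. Id2, a related target, lay between 70.5 and 186 CPM in homozygous, 78.9 and 94.4 CPM in heterozygous, and 124 and 156 CPM in wild-type libraries, with a size of -0.66 in heterozygous libraries (adjusted p = 0.562, edgeR). Smad9, a BMP signal transducer, had 2, 3 and 52 reads in homozygous, 5, 51 and 35 reads in heterozygous, and 0, 1 and 2 reads in wild-type libraries, with an adjusted p of 0.488 by edgeR in the heterozygous comparison. Msx1, a homeobox target, had 2, 4 and 53 reads in homozygous, 3, 80 and 92 reads in heterozygous, and 0, 3 and 0 reads in wild-type libraries, and DESeq2 called it in heterozygous libraries (adjusted p = 0.0372; 0.470 by edgeR). For both Smad9 and Msx1, the libraries with most reads were those with most Wnt3a. Both passed the filter through the deletion libraries alone, so these p values are not independent support. Msx1 was also named after its values were seen. The BMP antagonists other than Nog had 5 tested genes, of which 0 were called by edgeR, DESeq2 or limma-voom.

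**Figure D4:**
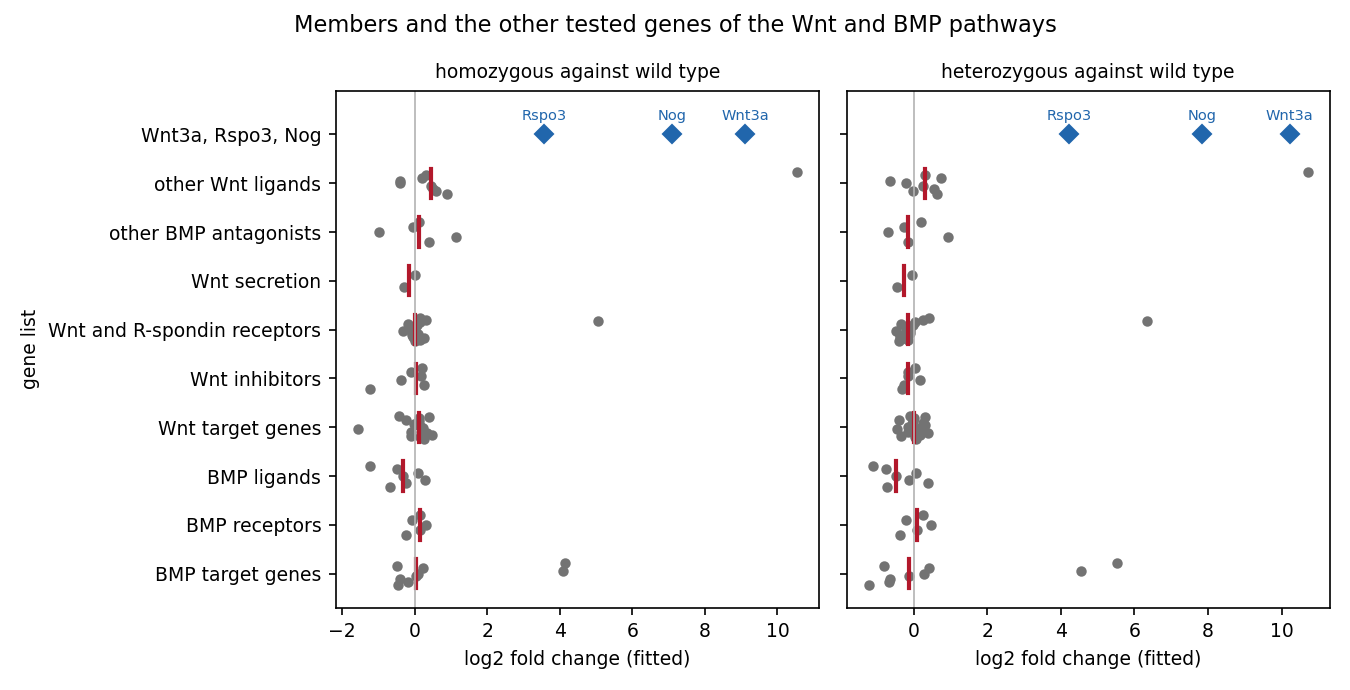
Fitted log2 fold change over wild type of Wnt3a, Rspo3 and Nog (diamonds) and of each tested gene of 9 Wnt and BMP gene lists (grey points, red bar at the list's median), homozygous on the left and heterozygous on the right. The 3 genes lie between 3.57 and 10.22, and most other pathway genes lie near 0, with Wnt10b, Lgr6, Smad9 and Msx1 as the points beyond 4.

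**Figure D5:**
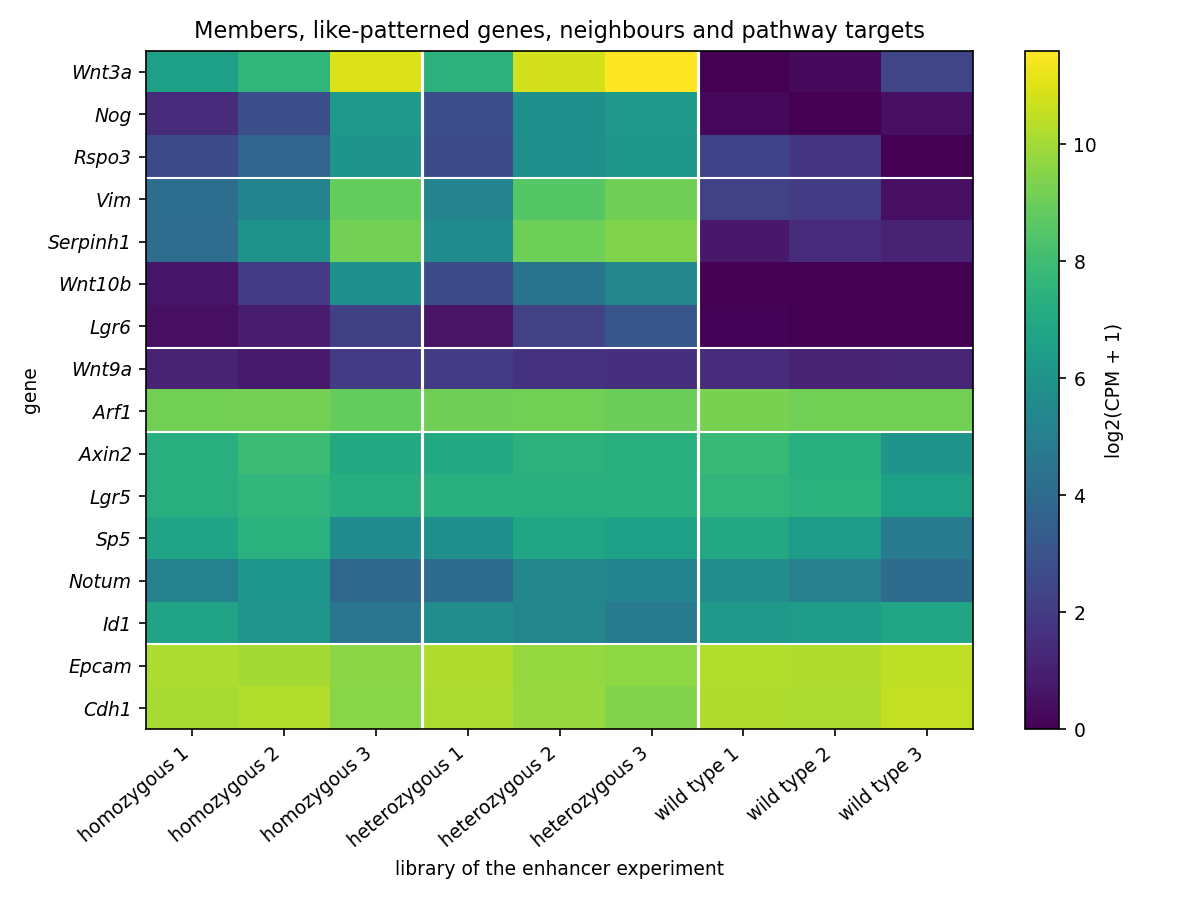
Level as log2(CPM + 1) of the 3 genes, of like-patterned and neighbouring genes, of pathway targets and of 2 epithelial genes (rows) in the 9 libraries of the enhancer experiment (columns). Rows are to be read across: Wnt3a, Nog, Rspo3, Vim, Serpinh1, Wnt10b and Lgr6 are brightest in homozygous 3, heterozygous 2 and heterozygous 3, and Wnt9a, Arf1, Axin2, Lgr5 and Epcam are not.

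In the lines, where Wnt3a had no read, the pathway genes were compared in the same way. Of the 75 tested, edgeR called 0 in CDX2 lines against GFP lines (0.409% of all 12720 genes called). At an unadjusted p under 0.05 edgeR had 15 of the 75 there (11.2% of all genes), DESeq2 called 5 (3.88%) and limma-voom 0. In HNF4A lines against GFP lines edgeR called 0 as well (0.142% of all genes), with 7 unadjusted (9.33%, against 5.76% of all genes). DESeq2 called 2 there (1.74% of all genes) and limma-voom 0. The unadjusted shares thus lay above those of all genes, a difference that was not tested. With the line number as a block, in a fit that also held small intestine, 3 of the 75 passed in the CDX2 lines. That share was not above the 4.54% of all genes, so nothing is read from the count. The 3 included Bmp8b, a BMP ligand (log2 fold change 3.68 ± 0.45, adjusted p = 0.00886), and the Wnt target Myc (1.43 ± 0.32, adjusted p = 0.0466), both by edgeR with SE.

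Small intestine organoids differed from the GFP lines in 21 of the 75 by edgeR (28.0%), near the share of all genes (27.1%). Of the 21, 2 were higher and 19 lower, where 14.2% of all genes were higher and 12.9% of all genes were lower. The median log2 fold change of the 75 was -0.84, against -0.012 over all genes. Wnt3, the Paneth cell Wnt, had 15 and 58 reads in small intestine and 0, 0 and 0 reads in GFP lines, at least 33.0-fold higher over the limit of 3 reads in the GFP group (adjusted p = 0.0388, edgeR). Without any 1 of the 5 libraries this call was lost, with an adjusted p between 0.0755 and 0.133 by edgeR. With no read in the GFP lines, Wnt3 passed the filter through libraries of other groups, which favours a higher level there. Its p values are therefore not independent support. Bmp8b had 104 and 105 CPM in small intestine and 9.07, 10.95 and 3.18 CPM in GFP lines (adjusted p = 0.0157, edgeR; 0.0703 without small intestine 1). Among the genes that fell, Notum, a secreted Wnt inhibitor, had 1.12 and 0.66 CPM in small intestine and 105, 64.1 and 88.7 CPM in GFP lines (log2 fold change -6.56 ± 0.63, adjusted p = 0.000371, edgeR). Wnt9a had 0.65 and 0.99 CPM in small intestine and 4.69, 4.46 and 8.45 CPM in GFP lines (-2.82 ± 0.56, adjusted p = 0.00715, edgeR; 0.0753 without small intestine 1). Other genes that fell included Wnt7b among ligands, Chrd and Twsg1 among BMP antagonists, Wls of Wnt secretion, the receptors Fzd1, Fzd3, Fzd6, Fzd8 and Fzd10, the inhibitors Dkk3 and Sfrp1, the targets Sp5 and Sox9, and Bmp4, Bmp6 and Smad6 on the BMP side. Small intestine against CDX2 lines and against HNF4A lines gave 11 and 9 called of the 75 (14.7% and 12%, against 11.3% and 12.5% of all genes). CDX2 against HNF4A lines gave 0 (0.0236% of all genes). Unadjusted, that comparison had 7 (9.33%, against 5.18% of all genes), with 0 by DESeq2 (1.09% of all genes) and 0 by limma-voom. Only 2 libraries of small intestine were there; without the first of them the calls over all genes against GFP lines fell to 833, against 3448 with both, and those among the 75 to 8, against 21. Without the second, 12 of the 75 were called, and without GFP line 1, 2 or 3, 16, 18 or 15 were. The 7 called in all 5 of these fits included Notum, Fzd1, Fzd3, Fzd8, Bmp4 and Smad6; Chrd and Sfrp1, like Wnt3, were called in none of them.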

How the data were processed

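The 20 columns of the deposited table hold raw counts of reads per gene symbol, made by the authors with STAR per the file's name and the submitters' processing notes, which give mm10 for the enhancer libraries. Per the labels' protocols, libraries were poly-A selected and read as 150 bp pairs. No source used here names the counter, annotation or strand setting. Reads of overlapping genes, or of a transgene and its endogenous gene, cannot be told apart. Of 19733 symbols, 2946 had no count anywhere.

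The 2 experiments were fitted separately with edgeR 4.0.16 (TMM, filterByExpr with minimum count 10 and total 15, robust quasi-likelihood test, Benjamini-Hochberg adjusted p under 0.05) in R 4.3.3; DESeq2 1.42.0 and limma 3.58.1 (voom) were alternatives. The steps were tested on simulated counts with the same spread for every gene. This does not show how the tests do at the spread between these libraries. CPM are counts over TMM-scaled totals. Ratios to Wnt3a used a prior count of 0.5. Floors are 3 counts and intervals are exact at 95%, for counting error only.

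The members and the 17 gene lists were chosen with earlier results of these data known. Named are all pathway genes called, else those separate between groups by a log2 fold change over 1 (and the highest-count ones), the 12 most alike each member, and neighbours; Axin2, Sp5, Notum, Lgr5, Msx1 and the printed promoters were picked after their values were seen. Of 162 listed genes, 161 are in the table. Same-numbered libraries deviated together in homozygous and heterozygous libraries (r = 0.53, 0.188 and 0.361). They also did so in the CDX2, HNF4A and GFP lines (r from 0.336 to 0.751 over the 3 pairings). With wild type they did not (homozygous -0.105, -0.024 and 0.244, heterozygous -0.29, -0.097 and -0.271), though the 0.244 lay above the 0.188. Nor did they in small intestine, which has 2 numbers (r from -0.088 to 0.118). Numbers were read as pairs only among the deletion genotypes and among the gastric lines. The block fits, however, held every library of an experiment, with wild type or small intestine included. The 24 other samples were not analysed here, and some genes that the rule names are not reported here.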

Additional observations from a re-analysis of the deposited data

How the results depend on the processing

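The direction of Wnt3a, Rspo3 and Nog over wild type was positive under every alternative run. Leaving out 1 library, Wnt3a ranged from 6.69 to 12.72 (homozygous over wild type), 9.44 to 13.83 (heterozygous over wild type) and -3.52 to -0.32 (homozygous over heterozygous), Rspo3 from 1.95 to 4.39, 3.69 to 5.051 and -2.26 to -0.11, and Nog from 4.28 to 7.88, 7.27 to 8.61 and -3.53 to -0.16. Without the 3 libraries with the most Wnt3a reads (homozygous 3, heterozygous 2 and 3; chosen after seeing the data, leaving 1 heterozygous library, assumed to vary like the others), Wnt3a was 6.71 and 6.97 over wild type (6.595 and 6.86 by DESeq2), Nog 4.28 and 4.90 (4.38 and 5.00 by DESeq2), and Rspo3 1.30 in heterozygous (1.33 by DESeq2); Rspo3 in homozygous over heterozygous reversed to 0.67 by both tools. The cause was not tested. Fold changes of the members in the lines rest on 0 to 17 reads a library and were not run. The SD of the ratio to Wnt3a ranged from 0.46 to 0.64 for Rspo3 and from 0.23 to 0.37 for Nog without 1 library, and the 54 genes under 0.5 became 48 to 92, or 15 where at least 30 reads were asked in each library, since fewer genes were compared.

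The number of genes called over all genes depended on the tool. Homozygous over wild type, edgeR called 0 and DESeq2 180; heterozygous over wild type, 0 and 327; homozygous over heterozygous, 0 and 1; without the 3 libraries DESeq2 called 57, 37 and 2. DESeq2 called 493, 221 and 139 genes in CDX2 against GFP, HNF4A against GFP and CDX2 against HNF4A lines, where edgeR called 52, 18 and 3, and 2675 and 2791 in small intestine against CDX2 and HNF4A lines, where edgeR called 1437 and 1585. limma-voom called 4 and 5 in CDX2 and HNF4A against GFP lines. With the replicate number as a block, edgeR called 5 (homozygous over wild type) and 51 (heterozygous over wild type), where the numbers do not pair the libraries, 578, 100 and 28 in the 3 comparisons among gastric lines, and 2942 and 3061 in small intestine against CDX2 and HNF4A lines; beside the 3 pathway genes counted for the CDX2 lines, the block changed no other pathway call where the numbers pair the libraries. Without 1 library, the counts ran from 11 (without GFP line 1) to 107 (without CDX2 line 3) in CDX2 against GFP, 4 (without GFP line 1) to 30 (without HNF4A line 3) in HNF4A against GFP, 0 (without HNF4A line 1) to 8 (without CDX2 line 3) in CDX2 against HNF4A, 833 to 2689 in small intestine against GFP, 103 to 1401 against CDX2 and 142 to 1423 against HNF4A lines, the lowest of the last 3 without small intestine 1. Depth limits most the counts of Nog in wild type (5 reads in all), Lgr6, Msx1 and Smad9, and the members in the lines.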
